A study of Homo sapiens with 6 samples.

Results

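Dimethylarginine dimethylaminohydrolases and the protein arginine methyltransferases stand at opposite ends of the same pathway, and their transcripts were measured in SK-Hep1 cells given an oligonucleotide against miR-21. The 8 genes were the hydrolases DDAH1 and DDAH2 and the methyltransferases PRMT1, PRMT2, PRMT3, CARM1, PRMT5 and PRMT6. Every probe set that the platform annotation assigns to these genes was taken, which gave 22 of the 54675 probe sets on the array. The 8 are among 19775 genes that have a probe set assigned to them alone. Of these, 18 passed a filter on low values (a mean log2 value of at least 4 over all arrays), and the other 4, which belong to PRMT1 and PRMT2, are given by their levels only. The genes were selected on their function, with their log2 differences in this comparison already known and DDAH1 among the genes called. Their differences between anti-miR-21 and mock are therefore a description of these arrays, and no p value is given for them.

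SK-Hep1 is an established human cell line derived from a liver adenocarcinoma. Cells were plated for 24 hours, then exposed to a lipid transfection reagent with 20 nM of anti-miR-21 or without it, and were collected 16 hours later. The mock group is described in the design text as receiving PBS and had no control oligonucleotide, so an effect of anti-miR-21 on its target cannot be told apart from an effect of any transfected oligonucleotide. Each group held 3 arrays, 1 per biological replicate. The labels call the hybridised material total RNA, while the extraction protocol cites an Argonaute immunoprecipitation procedure, and which fraction was used is not settled by the sources used here.

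Arginine methyltransferases transfer methyl groups from S-adenosylmethionine to arginines in histones and RNA-binding proteins. When such proteins are degraded, free methylated arginines are released, and asymmetric dimethylarginine is an inhibitor of nitric oxide synthases. DDAH1 and DDAH2 are known as the hydrolases of free dimethylarginine, with DDAH1 the better established as an active enzyme and strongly expressed in liver and kidney. A microRNA represses transcripts that pair with its seed, bases 2 to 8 counted from the 5′ end. The mature miR-21 that the oligonucleotide is directed against is shown, with the seed in capitals, because it defines the treatment (RefSeq, GRCh38.p14, chr17:59841273-59841294, plus strand).
hsa-miR-21-5p: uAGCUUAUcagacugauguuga
A transcript pairs with this seed through the letters AUAAGCU. The sequences of the transcripts were not used here, so no site was searched in any of the 8 genes.

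The arrays were alike in the number of probe sets read and in correlation, but not in their place on the first principal component. Each read between 22277 and 22591 probe sets at 4 or more, and pairs of arrays correlated over the kept probe sets at 0.9963 to 0.9983 in the same group and at 0.9939 to 0.9973 across groups. On the first principal component anti-miR-21 replicate 1 lay at 3.51, against 20.11 and 19.63 for the other anti-miR-21 arrays and -19.95 to -7.25 for mock. Mature miR-21 is not read by these arrays, and whether it was blocked was not checked. Of 11 hepatocyte markers with a probe set used here, 3 were kept (SERPINA1, AFP and TF), with SERPINA1 at a mean log2 level of 11.92 and AFP at 4.22. ALB, APOA1, APOB and TTR were below the filter. All 12 mesenchymal markers were kept, led by VIM at 15.71 and SPARC at 15.2. Of 12 endothelial markers 4 were kept, with ENG at 10.36, ROBO4 at 8.29, and TEK and CLDN5 dimmer than these. PECAM1, CDH5, VWF, KDR, TIE1, ERG, ESAM and EMCN were below the filter. Of 6 leukocyte markers CD74 and CD14 were kept (11.44 and 5.3), and PTPRC and CD3E were below the filter. No marker was called as different between the groups. The mean log2 level of the kept leukocyte markers was 8.29 to 8.31 in mock and 8.35 to 8.51 in anti-miR-21, that of the endothelial markers 6.71 to 6.85 and 6.92 to 6.96, and their part in the results was not tested.

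Among the 8 genes DDAH1, known beforehand to be called, had the largest differences. Of its 4 probe sets, 3 were higher with anti-miR-21, by 2.01-, 3.42- and 3.49-fold, and the remaining one differed by 1.15-fold and was not called. A call means an adjusted p under 0.05 with limma, adjusted over all kept probe sets. Called higher were 3 of the 18 kept member probe sets, against 1.10% of all 22408 kept probe sets, and none was called lower, against 1.07%. As genes, each represented by its brightest kept probe set, 1 of 8 was called higher, against 0.913% of 10848 genes, and none lower, against 1.22%. Because DDAH1 was in view when the genes were grouped, nothing is read from these shares.

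The brightest DDAH1 probe set, 209094_at, read 12.17, 12.32 and 12.2 in mock replicates 1 to 3 and 13.32, 13.14 and 13.25 in the anti-miR-21 replicates, on the log2 scale. The groups were separated by several times their own spread, with means of 12.23 ± 0.077 and 13.24 ± 0.093 (SD, n = 3). The difference of 1.01 ± 0.069 (SE) log2 units ranked 17 among 10848 genes ordered from the most increased. Anti-miR-21 replicate 1, which lay nearest to mock on the first principal component, had the highest value of this probe set. The log2 fold change stayed between 0.97 and 1.06 with any 1 array left out, and the call, known beforehand, was kept each time. These fits reuse the same arrays, so they are a description and no separate support.

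A second DDAH1 probe set, 1553565_s_at, read 7.63, 7.36 and 6.87 in mock and 8.84, 9.16 and 9.19 in anti-miR-21. Its lowest anti-miR-21 value lay more than 1 log2 unit above its highest mock value, and the mock arrays were spread more widely than the anti-miR-21 arrays (SD 0.382 and 0.197, n = 3). Its log2 fold change was 1.78 ± 0.196 (SE). The probe set 229456_s_at read 5.87, 5.09 and 5.66 in mock and 7.33, 7.46 and 7.24 in anti-miR-21, with SDs of 0.405 and 0.112 and a log2 fold change of 1.80 ± 0.191 (SE). By size of change they ranked 9 and 8 among all kept probe sets. Both start from dimmer levels than 209094_at, and their standard errors are larger than its 0.069. The suffix s_at marks a probe set that can match several transcripts. The call of 1553565_s_at was lost without mock replicate 2 and without either of the anti-miR-21 replicates 2 and 3, and that of 229456_s_at when anti-miR-21 replicate 2 was left out. Leaving out that last array reduced the member probe sets called to 1. The log2 fold changes of both probe sets were never below 1.57 in these fits.

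The fourth DDAH1 probe set, 243711_at, went with the others in sign but not in size. It read 8.15, 8.15 and 7.95 in mock and 8.16, 8.34 and 8.35 in anti-miR-21. The groups did not overlap, but the lowest anti-miR-21 array, replicate 1, was within 0.01 of the highest mock arrays. It differed by a log2 fold change of 0.20 ± 0.082 (SE), with a 95% interval of 0.00 to 0.39. That interval does not reach the lower bound of the other probe sets, of which the smallest was 0.84. All these intervals come from the same arrays and no difference between probe sets was fitted, so this is a description. Which DDAH1 transcripts each probe set reads was not determined here, since no probe sequence was used.

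**Figure D1:**
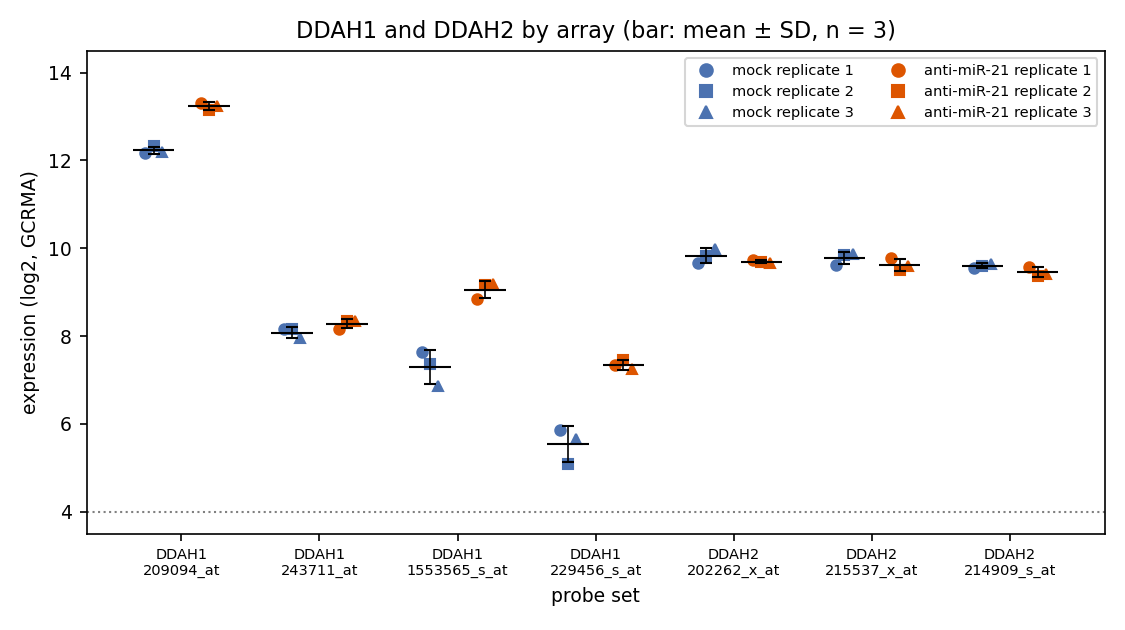
Log2 expression (GCRMA, vertical axis) of each probe set of DDAH1 and DDAH2 on the 6 arrays; colours give the group, symbols the replicate, black bars the mean with its SD (n = 3), and the dotted line the filter at 4. The DDAH1 probe sets 209094_at, 1553565_s_at and 229456_s_at are 1.01, 1.78 and 1.80 log2 units higher in anti-miR-21, 243711_at is 0.20 higher, and the 3 DDAH2 probe sets overlap between groups.

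DDAH2, the paralog of DDAH1, was not called on any of its 3 probe sets. The brightest, 202262_x_at, read 9.66, 9.83 and 9.99 in mock and 9.73, 9.69 and 9.66 in anti-miR-21. The mock range contained all anti-miR-21 values. Its log2 fold change was -0.13 ± 0.087 (SE), and those of 215537_x_at and 214909_s_at were -0.15 ± 0.097 and -0.15 ± 0.071. All 3 overlapped between groups. Their 95% intervals ran together from -0.38 to 0.08. The suffix x_at marks probe sets that can cross-hybridise with other transcripts, so 202262_x_at and 215537_x_at are less specific.

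Among the methyltransferases none of the 11 kept probe sets was called, 8 had a negative log2 fold change and 3 a positive one. Over all kept probe sets 49% were positive. PRMT2 gave 4 of the 11 and PRMT5 gave 3, so these signs are not independent. The log2 fold changes ran from -0.18 to 0.20 with a median of -0.09, where the median over all kept probe sets was -0.003. Their 95% intervals together covered -0.40 to 0.40, or 1.32-fold in either direction. Each interval was computed separately, without adjustment for reading 11 together, so they do not jointly exclude a larger change. The median within-group SD was 0.079, against 0.090 over all kept probe sets.

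PRMT1, the enzyme responsible for most asymmetric arginine dimethylation, read 13.55, 13.68 and 13.71 in mock and 13.68, 13.55 and 13.67 in anti-miR-21 on 206445_s_at. The values interleave, and the log2 fold change was -0.02 ± 0.065 (SE), turning to 0.02 when mock replicate 3 was left out and to 0.03 when anti-miR-21 replicate 2 was. The other PRMT1 probe set, 1565016_at, was below the filter, with means of 2.16 for mock and 2.18 for anti-miR-21.

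CARM1, also known as PRMT4 and a coactivator that methylates histone H3, read 9.66, 9.67 and 9.67 in mock and 9.51, 9.82 and 9.79 in anti-miR-21. The mock arrays were nearly equal (SD 0.008) while the anti-miR-21 arrays fell on either side of them (SD 0.174), with replicate 1 low and replicates 2 and 3 high. The log2 fold change was 0.04 ± 0.089 (SE) and was -0.02 without anti-miR-21 replicate 2.

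PRMT3, a cytoplasmic enzyme that methylates a ribosomal protein, had the largest positive value among the methyltransferases. It read 10.63, 10.54 and 10.33 in mock and 10.75, 10.69 and 10.67 in anti-miR-21. The groups did not overlap, though the gap between them was smaller than the spread of the mock arrays. It was not called, at a log2 fold change of 0.20 ± 0.083 (SE). PRMT6, a nuclear enzyme acting on histone H3, had the largest negative value. It read 9.93, 9.68 and 9.65 in mock and 9.52, 9.64 and 9.57 in anti-miR-21. The groups were 0.01 apart at their nearest arrays, with mock replicate 1 above the rest. PRMT6 was not called, at a log2 fold change of -0.18 ± 0.085 (SE).

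PRMT5, the main enzyme for symmetric arginine dimethylation, was measured by 3 probe sets that gave similar values. The brightest, 217786_at, read 12.5, 12.58 and 12.66 in mock and 12.52, 12.41 and 12.52 in anti-miR-21. Its log2 fold change was -0.10 ± 0.061 (SE), and those of 1564520_s_at and 1564521_x_at were -0.14 ± 0.066 and -0.09 ± 0.062. On each of the 3, anti-miR-21 replicate 2 was the lowest array, and the groups overlapped.

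PRMT2, which has weak methyltransferase activity and binds nuclear receptors, had the most probe sets, 7, of which 4 were kept. Their log2 fold changes differed in sign. They were -0.16 ± 0.097 on 228725_x_at, -0.08 ± 0.079 on 202098_s_at, -0.10 ± 0.052 on 228722_at and 0.11 ± 0.059 (SE) on 221564_at. On 221564_at mock read 8.5, 8.62 and 8.6 and anti-miR-21 read 8.64, 8.76 and 8.65. On 228722_at mock read 8.44, 8.37 and 8.35 and anti-miR-21 read 8.25, 8.34 and 8.27. Each of these last 2 probe sets separated the groups, in opposite directions, by no more than 0.02. Such separation was common: 24.0% of all kept probe sets had non-overlapping groups, and 8 of the 18 member probe sets did, 4 of them belonging to DDAH1. The 4 probe sets below the filter, 3 of PRMT2 and 1 of PRMT1, lay between 2.13 and 2.82 on every array.

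**Figure D2:**
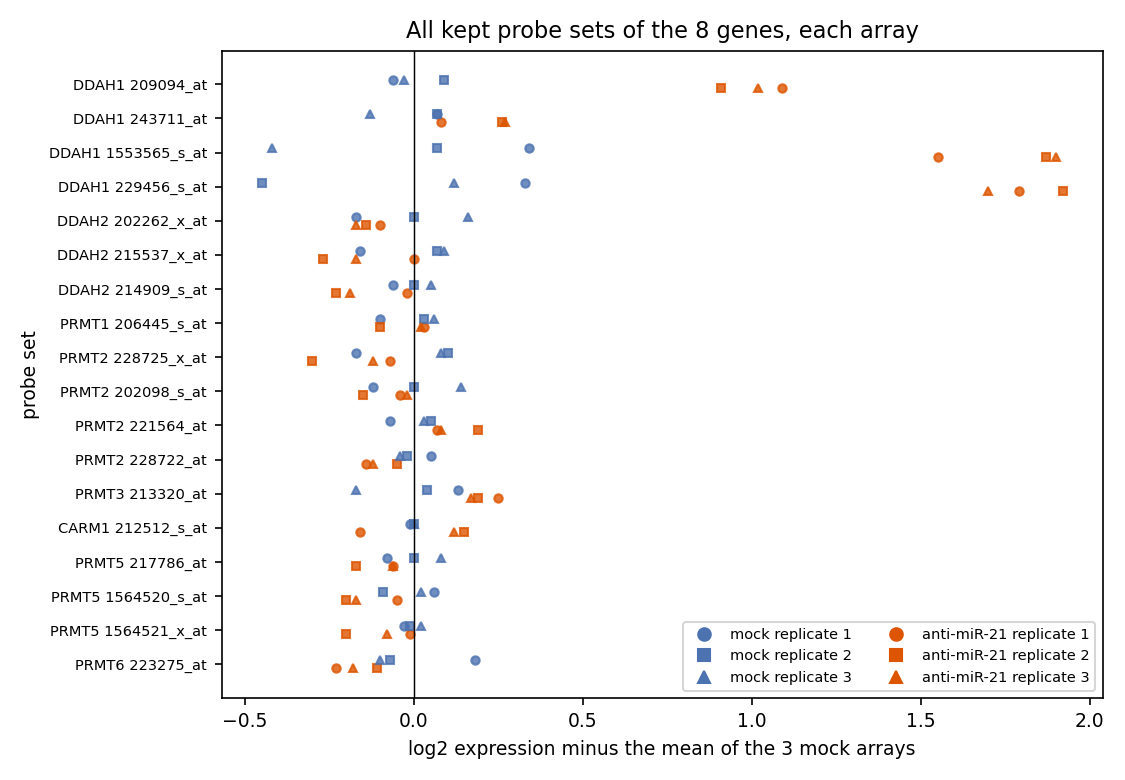
Each array's log2 expression minus the mean of the 3 mock arrays (horizontal axis) for the 18 kept probe sets of the 8 genes; colours give the group and symbols the replicate. For the 14 probe sets of genes other than DDAH1 the group difference is -0.18 to 0.20, whereas 3 DDAH1 probe sets lie near 1.01 to 1.80.

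**Figure D3:**
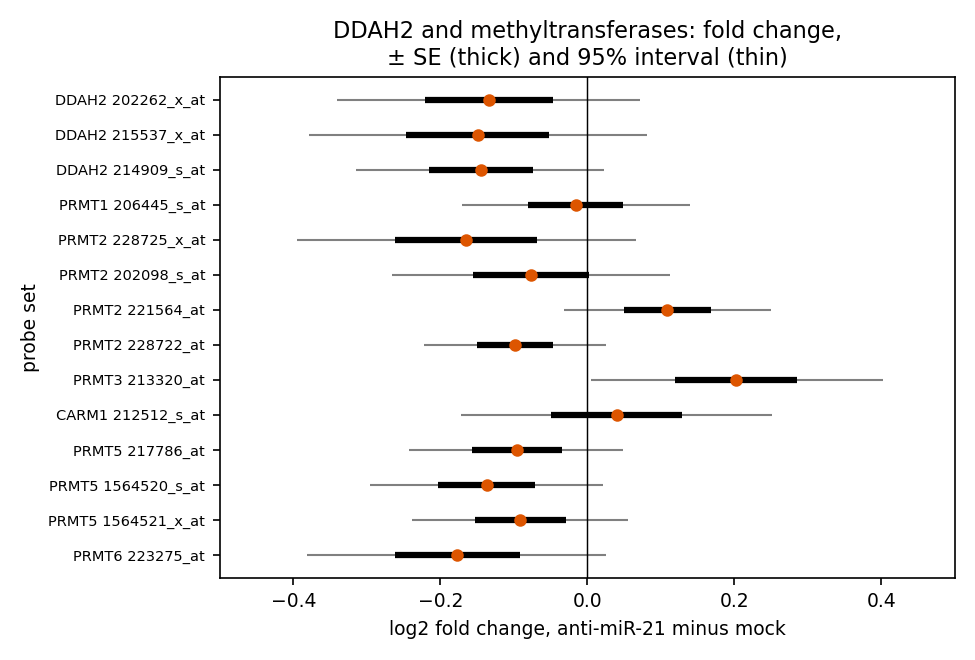
Log2 fold change, anti-miR-21 minus mock (horizontal axis), of the 14 kept probe sets of DDAH2 and the methyltransferases, with the standard error of the fit (thick line) and its 95% interval (thin line), 3 arrays per group. The points lie between -0.18 and 0.20 and 11 of the 14 are negative.

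Genes around these enzymes were taken as 4 lists, each gene represented by its brightest kept probe set and none of them a member of the 8. Of 85 listed genes 57 were kept. In all, 2 were higher with anti-miR-21, against 0.913% of all genes, and none was lower, against 1.22%. The lists, too, were chosen with earlier results of these data known, so nothing is read from these shares. The calls and adjusted p values given for list genes describe these arrays and are no separate support for DDAH1.

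The first list held 28 genes of arginine and methylarginine metabolism, which supply arginine, use it or dispose of it. Of 16 kept genes none was called, 7 had a positive and 9 a negative log2 fold change, and the median was -0.056, where that of all genes was -0.018. The log2 fold change of ODC1, the first enzyme of polyamine synthesis, was -0.23 ± 0.077 (SE, limma adjusted p = 0.198). SLC7A6, a transporter of cationic amino acids, had 0.17 ± 0.061 (limma adjusted p = 0.221), AMD1, which makes the aminopropyl donor for polyamines, 0.14 ± 0.052 (0.243) on its representative, and NOSIP, a protein that binds nitric oxide synthase, -0.15 ± 0.064 (0.274). A second AMD1 probe set, 201196_s_at, had the opposite sign (-0.10), and AMD1 stood at 0.02 with its probe sets averaged. The other SLC7A6 probe sets, 203579_s_at and 203578_s_at, had the same sign and larger values (0.32 and 0.25), and neither was called. With its probe sets averaged SLC7A6 stood at 0.245 (limma adjusted p = 0.0883). The nitric oxide synthases, whose inhibitor DDAH1 degrades, were below the filter on every probe set used. Those of NOS1 lay between 1.49 and 2.56 over all arrays, that of NOS2 between 2.14 and 2.19 and those of NOS3 between 2.08 and 2.84. ARG1, the liver arginase, and AGXT2, another enzyme that removes dimethylarginine, were also below it. A value below the filter does not show that a gene was not expressed.

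The second list held partners, relatives and counterparts of the methyltransferases. Of 10 kept genes 1 was higher and none lower, and the median was -0.037. RIOK1, a kinase of ribosome assembly that also serves as an adaptor of PRMT5, read 10.72, 10.72 and 10.8 in mock and 11.07, 11.01 and 11.04 in anti-miR-21. The groups did not overlap, and the difference was 1.22-fold (log2 difference 0.29 ± 0.05 SE, limma adjusted p = 0.0414). RIOK1 was no longer called when any array was dropped (limma adjusted p = 0.0733 to 0.166) and with array medians subtracted (0.0505). The other PRMT5 partners kept were WDR77, CLNS1A and COPRS, with log2 fold changes of 0.07, -0.01 and -0.14, none of them called. PRMT7, which makes monomethylarginine, had -0.25 ± 0.085 (SE, limma adjusted p = 0.205), and JMJD6, an oxygenase first described as an arginine demethylase, -0.18 ± 0.085 (0.318).

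The third list held enzymes that make or use the methyl donor S-adenosylmethionine. Of 7 kept genes 1 was higher and none lower, 5 had a positive log2 fold change, and the median was 0.126. NNMT, which spends S-adenosylmethionine on methylating nicotinamide, read 13.42, 13.41 and 13.42 in mock and 13.87, 13.84 and 13.88 in anti-miR-21. The gap between the groups was many times the spread within them, and the difference was 1.36-fold (log2 fold change 0.45 ± 0.045 SE, limma adjusted p = 0.00906). Its second probe set, 202238_s_at, was also called, at 0.47 on the log2 scale (limma adjusted p = 0.0175). The call of the first was lost when mock replicate 2 was left out (0.0608) or anti-miR-21 replicate 3 was (0.0571), where its log2 fold change was 0.44 in each case. AHCYL1, a relative of the enzyme that clears S-adenosylhomocysteine, had log2 fold changes of -0.25, -0.26 and -0.30 on its 3 probe sets. Its representative was not called (limma adjusted p = 0.0698), but passed with a trended, robust variance (0.0376) and with probe sets averaged (0.0472). MAT2A, the S-adenosylmethionine synthetase of cells outside the liver parenchyma, had 0.16 ± 0.067 (SE, limma adjusted p = 0.269), and MTRR, a reductase that reactivates methionine synthase, 0.13 ± 0.059 (0.322).

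The fourth list held proteins known to carry methylated arginines and the proteins that bind them. Of 24 kept genes none was called on its representative probe set, 13 had a positive log2 fold change, and the median was 0.004, with values from -0.06 to 0.26. HNRNPA1 and SFPQ, RNA-binding proteins of splicing, had 0.16 ± 0.056 and 0.13 ± 0.058 (SE, limma adjusted p = 0.199 and 0.322), KHDRBS1, a signalling RNA-binding protein, 0.09 ± 0.048 (0.393) and GAR1, of the small nucleolar ribonucleoproteins, 0.06 ± 0.048 (0.565). The other KHDRBS1 probe sets, 201488_x_at and 214185_at, had 0.11 and -0.08. Dimmer probe sets of HNRNPA1 showed larger values, named after they were seen. On 221919_at the mock arrays read 8.79, 8.91 and 8.84 and the anti-miR-21 arrays 9.43, 10.01 and 10.21, a called difference of 1.04 on the log2 scale (limma adjusted p = 0.0478). On 222040_at it was 1.23, which was not called (0.0829). In both, anti-miR-21 replicate 1 was the lowest of its group. The same held for some dimmer probe sets of other genes in this list that exceeded their representatives, none of them called. Examples were SFPQ 221768_at (0.65), HNRNPA2B1 225107_at (0.54), TAF15 227891_s_at (0.71) and CIRBP 225191_at (0.93, with a mock mean of 4.32). It did not hold for all of them. On SFPQ 226898_s_at (0.25) the anti-miR-21 arrays read 5.66, 4.92 and 5.31, with replicate 1 the highest. On SFPQ 201585_s_at (0.17) they read 12.62, 12.66 and 12.61, with replicate 3 the lowest. Other dimmer probe sets showed no such rise, such as ALYREF 226320_at (-0.01) and G3BP1 225007_at (-0.11). With the probe sets of each gene averaged, HNRNPA1 and SFPQ were called (limma adjusted p = 0.0392 and 0.0431).

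**Figure D4:**
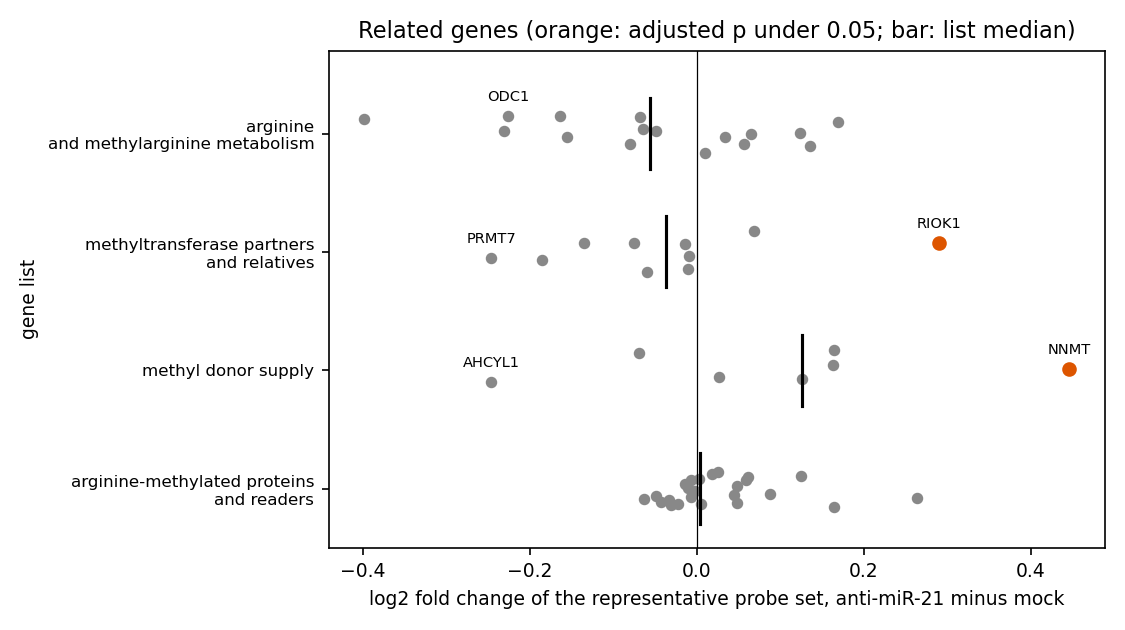
Log2 fold change, anti-miR-21 minus mock (horizontal axis), of the representative probe set of each kept gene in the 4 lists (vertical axis; position within a list is arbitrary); orange points passed the limma threshold of 0.05 and black bars are list medians. RIOK1 (0.29) and NNMT (0.45) are the 2 genes past the threshold, and the list medians run from -0.056 to 0.126.

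Genes with the pattern most like DDAH1 over the 6 arrays were ranked by Pearson correlation with 209094_at among 10840 other genes. The correlations rest on a difference between the groups that the genes share, and are a description. The 5 highest were SKP2 (0.9961), a ubiquitin ligase subunit acting on cell cycle inhibitors, ANKRD46 (0.9917), NNMT (0.9912), C15orf40 (0.99) and LYRM7 (0.99), a mitochondrial assembly factor. Their log2 fold changes were 0.61, 1.76, 0.45, 0.23 and 0.48. The 3 lowest were ADGRG1 (-0.9978), an adhesion receptor, SLC15A4 (-0.995), a lysosomal transporter, and CREB3L2 (-0.9944), a transcription factor of secretory cells, with log2 fold changes of -0.37, -0.23 and -0.23. SKP2 was read on 203625_x_at, whose suffix marks possible cross-hybridisation. Of the genes named here, C15orf40, SLC15A4 and CREB3L2 were not called. Correlations above 0.95 were found for 93 genes and below -0.95 for 122.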

How the data were processed

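RNA from 3 mock and 3 anti-miR-21 samples was measured on 6 single-colour arrays. The authors deposited log2 values for 54675 probe sets. Per the submitters' processing notes GCRMA was used, with version and settings not given in the sources used here. GCRMA normalizes between arrays and compresses dim values towards a floor. The deposited values, from 0.0443 to 16.2, were used as they stand, and the background correction could not be varied. Names came from single-gene entries of the platform annotation, with symbols checked by Entrez identifier against RefSeq GRCh38.p14. The 62 control probe sets were left out.

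Probe sets with a mean of at least 4 were kept (22408, 41.0%). A gene was represented by its kept probe set with the highest mean. Differences (anti-miR-21 minus mock) were fitted with lmFit and eBayes of limma 3.58.1 (R 4.3.3), without covariates. Tests were two-sided and adjusted over kept probe sets by Benjamini-Hochberg. The fit was tested on simulated data. Alternatives were no filter or a filter at 6, subtracted array medians, a trended and robust variance, averaged probe sets, a replicate block and each array left out.

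Members, lists and rules were chosen with earlier results of these data known. The text names every kept member probe set, the called genes of each list filled up to 4 by smallest p, the 2 brightest markers of a list, and the genes most and least correlated with DDAH1. Other names illustrate a list or are marked. Separate cultures are not stated in the labels, and p values then reflect only the spread among these samples. With 3 arrays a group, precision is low.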

Additional observations from a re-analysis of the deposited data

How the results depend on the processing

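All log2 fold changes of the members kept their sign in each setting tried, except those of PRMT1 and CARM1 with 1 array left out. With no filter 158 probe sets were called higher, against 247. With 1 array left out, 47 to 345 probe sets were called higher and 47 to 227 lower (239 with all arrays). The member probe sets called numbered 1 to 3, the RIOK1 list 0 and the NNMT list 0 to 1. Subtracting array medians left 0 called genes in the RIOK1 list. With a trended, robust variance or averaged probe sets 1 gene of the methyl donor list was lower, and with averaging 2 of the methylated proteins were higher. Same-numbered arrays of the groups did not deviate together (correlations -0.361, -0.266 and -0.002), and differently numbered arrays gave -0.232 to 0.399. Deviations from a mean of 3 arrays depend on each other, so these values cannot show whether the samples were paired. With the replicate number as a block, 54 probe sets were called higher and 37 lower, 2 of them DDAH1's (209094_at and 229456_s_at), and 0 genes in the RIOK1 and NNMT lists. The 345 called higher were found without anti-miR-21 replicate 1, the one nearest to mock on the first principal component. Fits with an array left out or with a block have fewer residual degrees of freedom. Why the counts changed was not tested for any setting. Background correction could not be varied.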
